A study of Homo sapiens with 4 samples.

Results

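The 10 genes examined here encode 8 receptor tyrosine kinases, AXL, MET, PDGFRA, PDGFRB, FGFR1, EPHA2, DDR2 and IGF1R, and 2 of their ligands, GAS6 and HGF. They were taken from a fixed list of names headed mesenchymal receptor kinases, which is a label and not a result. They are 10 of the 19970 protein-coding genes of the annotation, and the receptors are 8 of 58 receptor tyrosine kinase genes. For each gene, H3K27ac peaks were collected within 1 kb of the start of the canonical transcript (the promoter peak) and within 100 kb of the gene body (the locus) in 4 peak lists on hg38. The lists came from chromatin immunoprecipitation followed by sequencing of MDA-MB-231 and Hs578T cells, established human triple-negative breast cancer (TNBC) lines, with 2 replicates each. All 4 cultures had been exposed to the cytokine TWEAK at 10 ng/ml for 48 h, followed per the labels by 72 h of washout, with 8 h of starvation in Opti-MEM. The study's own text names a longer period, and the lists cannot settle which applied. Untreated and continuously treated cells were not analysed here, so the values describe the chromatin after washout and not an effect of TWEAK.

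The lists did not group by line. On chromosomes 1 to 22 and X the list of MDA-MB-231 replicate 1 had 209 peaks, and those of MDA-MB-231 replicate 2, Hs578T replicate 1 and Hs578T replicate 2 had 43353, 46330 and 44920. None of the 209 peaks lay in any of the 10 loci, so each value below is given for the 3 large lists, in the order MDA-MB-231 replicate 2, Hs578T replicate 1, Hs578T replicate 2. A mean over the MDA-MB-231 replicates would describe neither of them. The peaks of MDA-MB-231 replicate 2 overlapped those of the Hs578T lists about as much as these overlapped each other, and without reads the line behind this list could not be checked. A value quoted for it is that of the list so labelled. No test between lines was made, since with 2 lists each there are 3 splits, and the smallest p of an exact permutation test (two-sided) is 0.333. The labels give replicate numbers but not whether replicates were separate cultures, and the study describes its cell line libraries as biological replicates. Of the marker genes examined, VIM, ZEB1, ZEB2 and FN1, 4 of 6 mesenchymal ones, had a promoter peak in all 3 large lists, SPARC had one in Hs578T replicate 1 alone and CDH2 had none. Of 7 epithelial markers, KRT8, KRT18, CLDN3 and CLDN4 had a peak in all 3, EPCAM in 2, and CDH1 and ESRP1 in none. None of 3 luminal markers (ESR1, GATA3, FOXA1) had one. Of 4 blood and endothelial markers, PTPRC, CD3E and CDH5 had none, and PECAM1 differed between lists. Its peak measured 7148 bp at a fold enrichment of 14.3 in MDA-MB-231 replicate 2 and 374 bp at 2.82 in Hs578T replicate 1, and none was called in Hs578T replicate 2.

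Acetylation of histone H3 at lysine 27 (H3K27ac) is deposited at active promoters and enhancers, and broad acetylated domains often lie over strongly transcribed genes. Receptor tyrosine kinases are single-pass membrane proteins, many of which dimerise on binding a ligand. Once active they phosphorylate each other on tyrosine and recruit adaptors such as GRB2 and SHC1 to signal towards growth, survival and migration. AXL and MET are known for roles in invasion and drug tolerance of carcinoma cells, and the PDGF receptors and DDR2 are typical of fibroblasts and other mesenchymal cells.

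Promoter peaks were found at 7 of the 10 genes, AXL, GAS6, MET, PDGFRB, FGFR1, EPHA2 and IGF1R, in each of the 3 large lists, and at HGF, PDGFRA and DDR2 in none. In the background, a promoter peak was present at 58.1%, 58.2% and 56.4% of protein-coding genes in the 3 large lists, 55.6% had one in all 3, and 0.0601% had one in MDA-MB-231 replicate 1. The 7 genes carried their peak in every large list, as most marked genes did. A peak in all 3 was found at 11112 genes, beside 11595, 11629 and 11264 genes marked in the single lists. The share marked among the 10 genes is not far above that of all genes. HGF, PDGFRA and DDR2 had no peak at any other annotated start either. At the edge of the 1 kb limit, the FGFR1 peak began 128, 135 and 753 bp inside the gene, while the nearest peak to the PDGFRA start, the closest of the unmarked genes, lay 11226, 11329 and 11377 bp away.

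The DNA around these starts is shown for 4 genes with a promoter peak and for the 3 without, so that their base composition can be compared. Each sequence runs from 250 bases before to 50 bases after the start, 5′ to 3′ on the strand of the gene, as given by RefSeq on GRCh38.p14. Matches to the GC box, GGGCGG or CCGCCC (the same motif on either strand), are in capitals. The positions are chr19:41218973-41219272 (AXL, plus strand), chr7:116671946-116672245 (MET, plus), chr1:16156020-16156319 (EPHA2, minus), chr5:150155796-150156095 (PDGFRB, minus), chr4:54229043-54229342 (PDGFRA, plus), chr1:162632214-162632513 (DDR2, plus) and chr7:81769998-81770297 (HGF, minus).
AXL: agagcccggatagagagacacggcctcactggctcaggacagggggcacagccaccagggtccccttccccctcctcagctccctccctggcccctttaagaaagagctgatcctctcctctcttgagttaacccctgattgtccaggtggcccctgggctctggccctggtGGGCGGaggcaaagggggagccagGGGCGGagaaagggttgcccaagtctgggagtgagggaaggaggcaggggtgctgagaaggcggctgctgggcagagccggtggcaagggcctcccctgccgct
MET: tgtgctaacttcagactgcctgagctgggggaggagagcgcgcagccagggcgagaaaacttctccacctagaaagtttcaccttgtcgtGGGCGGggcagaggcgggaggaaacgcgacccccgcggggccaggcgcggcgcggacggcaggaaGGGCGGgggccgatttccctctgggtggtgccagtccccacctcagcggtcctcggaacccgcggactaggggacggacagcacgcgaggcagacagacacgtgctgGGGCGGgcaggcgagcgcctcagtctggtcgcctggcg
EPHA2: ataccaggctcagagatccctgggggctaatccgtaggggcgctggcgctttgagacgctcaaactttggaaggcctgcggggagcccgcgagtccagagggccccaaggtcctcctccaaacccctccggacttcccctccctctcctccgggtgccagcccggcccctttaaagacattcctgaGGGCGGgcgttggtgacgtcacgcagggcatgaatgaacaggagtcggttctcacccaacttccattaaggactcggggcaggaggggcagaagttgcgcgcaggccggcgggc
PDGFRB: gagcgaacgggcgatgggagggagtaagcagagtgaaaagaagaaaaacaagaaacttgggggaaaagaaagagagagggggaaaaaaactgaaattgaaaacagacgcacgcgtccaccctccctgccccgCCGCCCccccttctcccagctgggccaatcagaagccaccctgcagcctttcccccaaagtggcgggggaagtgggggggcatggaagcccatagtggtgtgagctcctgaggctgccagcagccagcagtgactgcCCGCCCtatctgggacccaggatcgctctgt
PDGFRA: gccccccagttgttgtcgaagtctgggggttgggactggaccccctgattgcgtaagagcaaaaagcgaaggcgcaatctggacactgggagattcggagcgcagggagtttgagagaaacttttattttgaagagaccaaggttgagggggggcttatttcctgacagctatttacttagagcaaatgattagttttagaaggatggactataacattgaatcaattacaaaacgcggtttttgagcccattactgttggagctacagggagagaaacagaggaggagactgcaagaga
DDR2: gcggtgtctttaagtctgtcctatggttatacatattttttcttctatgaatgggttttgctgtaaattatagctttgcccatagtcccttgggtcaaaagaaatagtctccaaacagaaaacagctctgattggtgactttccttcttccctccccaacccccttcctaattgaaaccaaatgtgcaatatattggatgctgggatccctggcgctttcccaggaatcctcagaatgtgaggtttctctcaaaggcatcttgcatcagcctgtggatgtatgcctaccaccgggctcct
HGF: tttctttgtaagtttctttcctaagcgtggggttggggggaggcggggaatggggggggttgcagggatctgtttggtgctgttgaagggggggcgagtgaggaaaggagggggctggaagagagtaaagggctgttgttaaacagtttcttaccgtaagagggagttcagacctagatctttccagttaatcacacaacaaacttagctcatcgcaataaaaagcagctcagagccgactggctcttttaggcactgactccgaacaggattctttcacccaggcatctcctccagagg

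The 3 unmarked starts held no GC box, whereas AXL held 2, MET 3, EPHA2 1 and PDGFRB 2, and of the marked genes not printed GAS6 held 3 and IGF1R 2. Of 35116 such promoters, 45.0% held at least 1. CpG dinucleotides numbered 8, 3 and 7 in PDGFRA, DDR2 and HGF, and 7, 30, 20 and 11 in AXL, MET, EPHA2 and PDGFRB, beside a median of 14 over all promoters. AXL thus held as few as HGF, while its peak was the highest ranked of the 10 genes. GAS6 and IGF1R held 42 and 55. The AP-1 motif, TGACTCA or its reverse complement TGAGTCA, was in none of the 9 windows read and in 4.95% of all promoters. A match is a description of the letters and not a bound site.

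**Figure D1:**
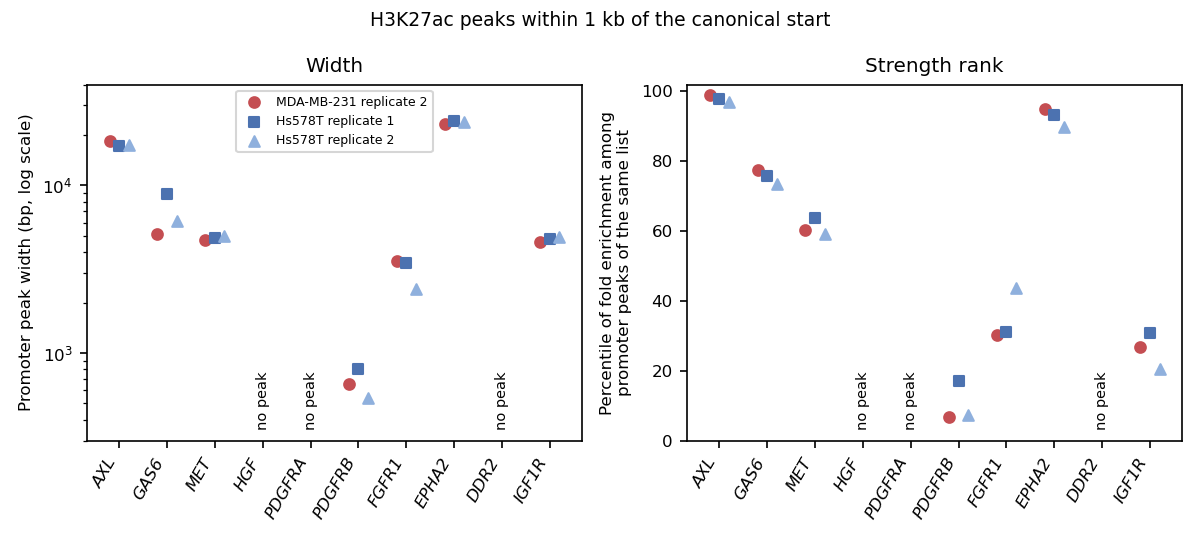
Promoter peaks of the 10 genes in the 3 large lists. Left, width in bp on a log axis. Right, the percentile of the fold enrichment among promoter peaks of protein-coding genes in the same list. AXL and EPHA2 stand at the top of both panels, PDGFRB at the bottom, and HGF, PDGFRA and DDR2 have no peak. Each point is 1 list.

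Promoter peaks differed in width by more than 10 kb between genes and by far less between lists. The fold enrichment of a peak, the ratio over the local background that the authors' peak caller gave, depends on the background of each library, so it is quoted per list and only its rank is compared. Its percentile among the promoter peaks of protein-coding genes put AXL first (96.9 to 99.0), followed by EPHA2 (89.7 to 95.1), GAS6 (73.4 to 77.5) and MET (59.1 to 63.7), none of which overlapped over the lists. FGFR1 (30.2 to 43.6) and IGF1R (20.6 to 30.9) overlapped each other, and PDGFRB was lowest (6.74 to 17.1). Only AXL and EPHA2 of the 10 genes had a promoter peak of at least 10 kb, a width reached by 1.6%, 2.14% and 1.6% of genes with a promoter peak.

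AXL, the TAM family receptor for GAS6 (chr19:41219223-41261766, plus strand), lay under a domain that began before the start and ran across the first part of the gene. The peak measured 18329, 17181 and 17308 bp, with 992, 1381 and 988 bp of it upstream of the start. Its fold enrichment was 29.8, 24.2 and 18.1, beside medians of 9.18, 8.13 and 6.86 over all promoter peaks of these lists. The 3 lists place both edges within 2 kb of each other. Smaller peaks followed within the gene, so that 51.9%, 72.0% and 57.1% of the gene body was covered. The domain and the weak peaks next to it held 8 AP-1 motifs, all of them inside the promoter peak.

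Beyond the AXL gene, most peaks in the locus were closer to the start of another gene. A region at the start of HNRNPUL1, 43.0 kb downstream of the AXL start, had a fold enrichment of 17.0, 18.4 and 13.6. The strongest region over 2.5 kb from every canonical start (distal, as used throughout) was in an intron of TGFB1, which encodes a cytokine that drives epithelial-mesenchymal transition, at +106 kb (chr19:41321445-41329307). It measured 7732, 7544 and 7858 bp, with a fold enrichment of 9.68, 10.8 and 7.97, and held 4 AP-1 motifs. Of the 13, 13 and 14 peaks of the locus, 2 per list had AXL as the nearest start of a protein-coding gene.

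GAS6, the vitamin K-dependent ligand of AXL, TYRO3 and MERTK (chr13:113820549-113864076, minus strand), had a promoter peak of 5157, 8916 and 6097 bp. Its fold enrichment was 14.0, 12.4 and 9.72. The width of Hs578T replicate 1 stood above the others, where peaks that were separate in the other lists were joined: as a region the 3 lists covered 8398, 8916 and 9197 bp. The locus was the most densely acetylated of the 10, with 24.9%, 26.3% and 25.1% covered. Its strongest distal region lay upstream at −40.8 kb (chr13:113894673-113915043), in an intron of the non-coding gene LINC00452. It covered 19274, 18918 and 19320 bp, in 2 peaks per list. The peak nearer to GAS6, of 4143, 6598 and 4141 bp, had a fold enrichment of 25.8, 25.9 and 26.9. These values exceeded that of the promoter peak in each list. The wider peak, of 15131, 12320 and 15179 bp, had 10.7, 13.4 and 10.4. No AP-1 motif was found across the region. At the far end of the gene a region over the start of the antisense transcript GAS6-AS1 covered 9556, 12329 and 10943 bp and held 6 AP-1 motifs.

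MET, the receptor for hepatocyte growth factor (chr7:116672196-116798377, plus strand), had a narrower promoter peak than AXL and GAS6, and one of lower fold enrichment. The peak measured 4741, 4863 and 4964 bp, and its fold enrichment was 10.7, 9.98 and 7.83. Of 18 regions in the locus, merged over lists, 15 were called in all 3 large lists and 9 lay within the gene. An intronic region at +103 kb (chr7:116770518-116780665) covered 8114, 10129 and 8919 bp, with a fold enrichment of 15.1, 13.0 and 12.6, above that of the promoter in every list. Another at +18.0 kb (chr7:116685380-116694913) covered 8160, 8696 and 9448 bp at 13.4, 13.7 and 11.1. Before the start, regions between −94.9 and −19.0 kb all lay in introns of the non-coding gene COMETT, and the pair at −94.9 and −83.8 kb reached 12.8, 12.8 and 9.50, and 10.1, 11.5 and 11.3.

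HGF, the ligand of MET and a product of fibroblasts and other stromal cells (chr7:81699010-81770438, minus strand), showed the opposite picture. No peak touched its gene body. The nearest peak to its start was 84527, 77315 and 84562 bp away, and the locus held 3, 4 and 3 peaks covering 6665, 6271 and 5997 bp. The strongest, at +166 kb from the start and so past the end of the gene, had a fold enrichment of 17.3, 11.7 and 11.7 and lay in an intron of the pseudogene CDHR17P, with HGF as the nearest protein-coding start. Of 5 genes that activate HGF or restrain its activation, PLAU (urokinase) and SPINT2 (an inhibitor of HGF-activating proteases) had promoter peaks, with fold enrichments of 23.1, 19.9 and 18.7, and 24.3, 16.9 and 14.5. HGFAC, ST14 and SPINT1 had none.

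The PDGF receptors, which drive the growth of mesenchymal cells, differed from each other. PDGFRB (chr5:150113839-150155872, minus strand) had a small promoter peak of 654, 799 and 542 bp, with a fold enrichment of 3.94, 4.60 and 3.37. All 3 values were among the weakest of the promoter peaks in their list. An intronic region at +12.9 kb (chr5:150141457-150144459) was stronger, at 13.2, 14.3 and 10.5, over 2689, 2824 and 2560 bp. Of the 13 regions in the locus, 10 lay outside the gene, most of them in introns of HMGXB3 and of CSF1R, which encodes the receptor for macrophage colony-stimulating factor.

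PDGFRA (chr4:54229280-54298245, plus strand) had no promoter peak. Within the gene a single region, at +52.2 kb, was called, with a fold enrichment of 4.53, 3.58 and 3.20. Upstream, 2 stronger regions lay at −76.4 kb and −64.0 kb in an intron of a readthrough gene (ENSG00000282278) that overlaps PDGFRA. The first reached 17.2, 22.8 and 18.8, and the second 12.5, 15.4 and 13.6. The nearest start of a protein-coding gene was GSX2 for the first and PDGFRA for the second. In all, 6, 7 and 6 peaks covered 8857, 10458 and 9355 bp of the locus.

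FGFR1, a receptor for fibroblast growth factors (chr8:38400215-38468834, minus strand), had a promoter peak of 3541, 3465 and 2404 bp that lay wholly downstream of the canonical start. Its fold enrichment was 6.66, 5.99 and 6.27, below the median promoter peak in each list. The strongest region in the gene was near its end, at +61.9 kb, where 10119, 10196 and 10310 bp were covered at up to 22.4, 20.9 and 18.0. This region holds the start of a non-coding transcript (ENSG00000272159) and overlaps LETM2. The strongest distal region, at −59.2 kb in an intron of LINC03042, reached 10.4, 8.13 and 6.44.

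EPHA2, a receptor for ephrin-A ligands on neighbouring cells (chr1:16124337-16156069, minus strand), had the widest promoter peaks of the 10 genes, at 23145, 24098 and 23916 bp. Their fold enrichment was 22.02, 19.1 and 13.7. The peak extended 21765, 22477 and 22616 bp into the gene, and with further peaks 82.1%, 92.2% and 83.7% of the gene body was covered. At −22.3 kb an intergenic region (chr1:16171486-16185253) covered 11622, 13768 and 12333 bp, with a fold enrichment of up to 23.5, 16.4 and 16.9. It held 5 AP-1 motifs, the same number as the promoter domain.

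DDR2, a receptor for fibrillar collagen (chr1:162631373-162787405, plus strand), had no promoter peak, and the nearest peak to its start was 26095, 25988 and 25990 bp away. Inside the gene, an intronic region at +58.2 kb (chr1:162689381-162691872) reached 11.7, 16.3 and 12.8 and covered 1760, 2372 and 2393 bp. The strongest region of the locus, at +242 kb (chr1:162872394-162875568), was closest to the start of CCDC190 and had a fold enrichment of 23.5, 30.9 and 27.4. Only 2.30%, 3.999% and 3.23% of the gene body was covered.

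IGF1R, the receptor for insulin-like growth factors (chr15:98648539-98964530, plus strand), is the longest of the 10 genes. Its promoter peak measured 4606, 4784 and 4904 bp, with a fold enrichment of 6.29, 5.98 and 4.43. Of the 21 merged regions in the locus 17 were in the gene. The strongest, at +79.1 kb (chr15:98725467-98729876), reached 21.9, 28.1 and 21.6 and held no AP-1 motif, and the widest, at +208 kb, covered 10406, 10647 and 10591 bp. As in MET, PDGFRB and FGFR1, the promoter peak was not the strongest peak in the gene in any of the 3 lists. A region at −100.0 kb, with a fold enrichment of 3.98, 3.89 and 3.43, crossed the outer limit of the locus.

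**Figure D2:**
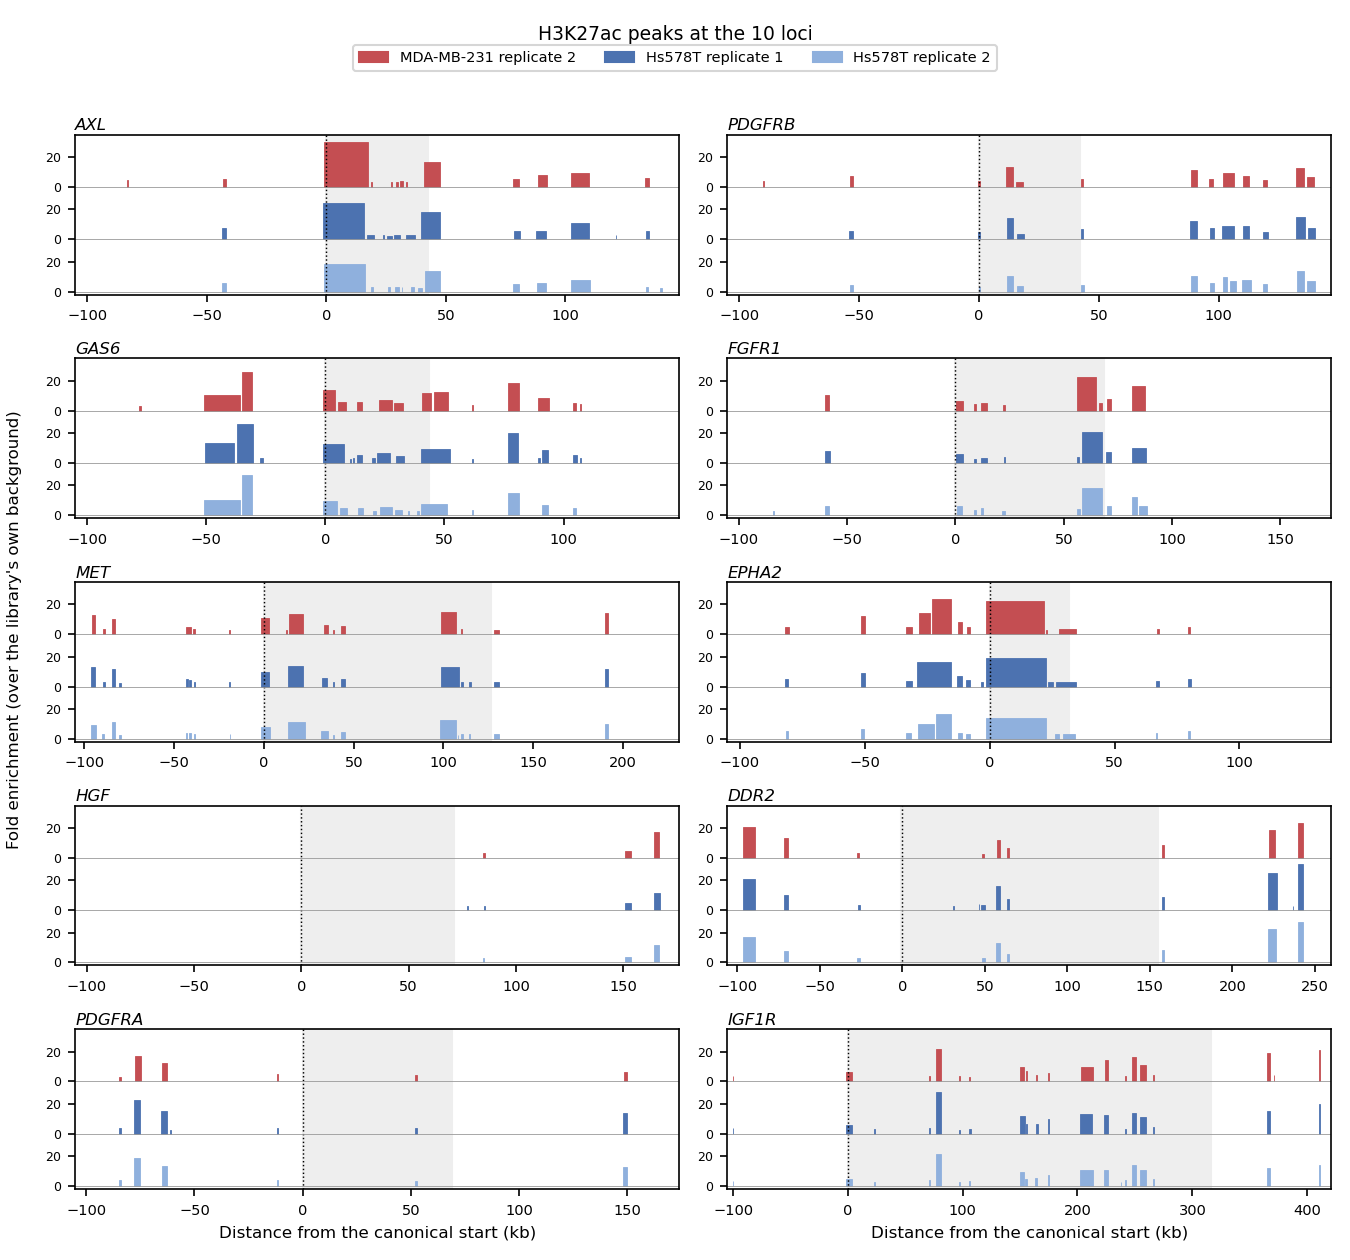
Peaks at the 10 loci in the 3 large lists. Horizontal axis, distance from the canonical start in kb, with the direction of transcription to the right. Vertical axis, fold enrichment over the background of each library, with 1 track per list. Grey marks the gene body and the dotted line the start. The broad blocks over the start of AXL and EPHA2, the empty gene body of HGF and the many intronic peaks of MET and IGF1R recur in all 3 tracks.

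Strong distal regions are represented by 3 windows of 300 bases, chosen by the AP-1 motif nearest to the middle of the strongest distal region of the gene, with that motif in capitals and the plus strand of hg38 shown. They come from the MET intron at +103 kb (chr7:116776661-116776960), the PDGFRB intron at +12.9 kb (chr5:150143336-150143635) and the region at −76.4 kb of PDGFRA (chr4:54151431-54151730), 1 gene with a mid-ranked promoter peak, 1 with a weak one and 1 with none. The MET and PDGFRB windows lay whole inside a peak in all 3 large lists. The PDGFRA window did so in the Hs578T lists only, since the peak of MDA-MB-231 replicate 2 began after it, at position 54151902, and held no AP-1 motif.
MET intron: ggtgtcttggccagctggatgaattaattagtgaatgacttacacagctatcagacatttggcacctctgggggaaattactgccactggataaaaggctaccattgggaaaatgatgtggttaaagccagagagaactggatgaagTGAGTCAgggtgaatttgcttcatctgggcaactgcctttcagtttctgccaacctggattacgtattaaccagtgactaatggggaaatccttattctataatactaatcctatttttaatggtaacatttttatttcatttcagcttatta
PDGFRB intron: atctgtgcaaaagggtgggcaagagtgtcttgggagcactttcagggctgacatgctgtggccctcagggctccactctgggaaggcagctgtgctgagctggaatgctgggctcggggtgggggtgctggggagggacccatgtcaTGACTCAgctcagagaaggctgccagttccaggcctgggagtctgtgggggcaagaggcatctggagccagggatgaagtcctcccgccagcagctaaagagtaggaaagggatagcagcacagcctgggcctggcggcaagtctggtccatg
PDGFRA upstream: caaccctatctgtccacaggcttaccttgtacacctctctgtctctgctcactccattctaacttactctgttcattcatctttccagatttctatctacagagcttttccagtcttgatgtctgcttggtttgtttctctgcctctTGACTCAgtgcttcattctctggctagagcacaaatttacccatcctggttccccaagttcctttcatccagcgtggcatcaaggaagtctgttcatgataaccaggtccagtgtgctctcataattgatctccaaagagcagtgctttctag

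The AP-1 motif was then counted over all distal peaks of the 10 loci, a feature that had no part in choosing the genes. It was in 57.3% of 89 peaks (95% Wilson interval 46.9 to 67.1%), 47.9% of 94 (38.1 to 57.9%) and 55.3% of 94 (45.3 to 65.0%). Over all distal peaks of the lists the shares were 51.9%, 51.1% and 50.3%, which lie within these intervals. Distal peaks of the loci were wider, with medians of 1573, 1611 and 1584 bp beside 1220, 1237 and 1199 bp. Per 10 kb they held 3.32, 2.78 and 3.24 motifs, fewer than the 4.73, 4.55 and 4.60 over all distal peaks. The NF-κB consensus, searched on both strands, was in 26.97%, 26.6% and 27.7% of the distal peaks of the loci. The 95% Wilson intervals were 18.8 to 37.0%, 18.7 to 36.3% and 19.6 to 37.4%. Of all distal peaks, 17.2%, 17.2% and 16.4% held it. Per 10 kb there were 1.98, 1.95 and 2.13 matches at the loci and 1.41, 1.38 and 1.36 over all distal peaks. The intervals reflect counting error only, and peaks that lie close together are not independent. The 3 lists cover largely the same bases at the loci, so their shares are not separate counts.

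By position, 61.7%, 64.2% and 63.9% of the 115, 123 and 122 peaks at the loci were intronic, beside 44.5%, 45.5% and 45.5% of all peaks. Promoter peaks of any annotated gene made up 19.1%, 18.7% and 19.7%, beside 29.8%, 28.5% and 28.4%. The loci are windows around gene bodies, some of them long, so the shares of all peaks are not a like comparison. Like windows around other genes were not counted. Peaks covered 336865, 375513 and 348786 bp of the 10 loci. As a share of the locus, GAS6 (24.9 to 26.3%) and EPHA2 (22.3 to 25.5%) overlapped over the lists, as did EPHA2 and AXL (19.0 to 22.5%), and MET (12.2 to 13.9%) and PDGFRB (11.2 to 12.7%). Below them followed FGFR1 (9.65 to 10.7%), IGF1R (8.66 to 9.47%), DDR2 (6.37 to 7.62%), PDGFRA (3.29 to 3.89%) and HGF (2.21 to 2.46%), each without overlap with the next. The median protein-coding gene had 3.96%, 4.37% and 4.002%, and 8 of the 10 genes were above it in each list, all but PDGFRA and HGF. Among all protein-coding genes AXL stood at percentiles 97.5, 98.1 and 97.7, and HGF at 34.8, 30.6 and 31.6. Other genes share these loci, and a peak was not assigned to one of them by its position.

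**Figure D3:**
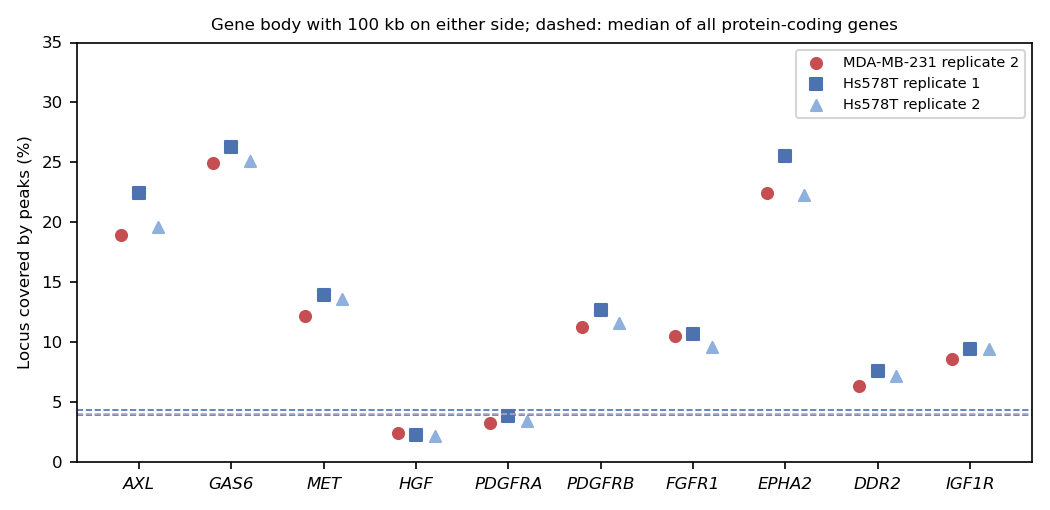
Share of each locus covered by peaks, in percent, where the locus is the gene body with 100 kb on either side. Each point is 1 of the 3 large lists, and the dashed lines are the medians of all protein-coding genes in these lists. GAS6, EPHA2 and AXL lie above 18%, and PDGFRA and HGF lie below the medians.

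Between the large lists the loci differed little, and so did the lists as a whole. Of 128 merged regions, 101 were called in all 3, 5 in 2 and 22 in 1, of which 5 were in MDA-MB-231 replicate 2, 12 in Hs578T replicate 1 and 5 in Hs578T replicate 2. Those of a single list were weak and short, with a fold enrichment of at most 4.44 and a median width of 369 bp. The overlap of a pair of lists, as bases under peaks of both divided by bases under peaks of either (the Jaccard index), was 0.793 and 0.797 at the loci for MDA-MB-231 replicate 2 against Hs578T replicates 1 and 2, and 0.808 for the Hs578T pair. Across chromosomes 1 to 22 and X it was 0.770, 0.759 and 0.780. For MDA-MB-231 replicate 1 it was 0 at the loci against each other list. MDA-MB-231 replicate 2 covered fewer bases than both Hs578T lists at 7 of the 10 genes and more than both at HGF alone, while 43.8% and 17.8% of all protein-coding genes did so.

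In rank within the list, MDA-MB-231 replicate 2 was below both Hs578T lists at 43 of the 101 shared regions, above both at 32 and between them at 26. These shares, 42.6% below and 31.7% above, stand beside 48.2% and 30.9% of all 37832 regions called in the 3 large lists. The widest gap was at an intergenic region at +149 kb of PDGFRA (chr4:54377465-54379238), with a fold enrichment of 6.35, 13.7 and 12.5. Its percentile among all peaks of the list was 56.2 in the MDA-MB-231 list and 88.5 and 89.99 in those of Hs578T. At the PDGFRA region of −84.3 kb the percentiles were 10.3, 38.03 and 34.05, and at the IGF1R intron of +164 kb they were 37.8, 62.9 and 57.8. These gaps were picked for their size from 101 regions, and only 1 list labelled MDA-MB-231 stands behind each.

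In the wider family, 23, 23 and 22 of the 58 receptor tyrosine kinase genes had a promoter peak, 22 of them in all 3 large lists. LTK was marked in 2 of the lists only, with fold enrichments of 3.25 and 2.95 in MDA-MB-231 replicate 2 and Hs578T replicate 1. Of the 8 receptors described above, 6 (75%) were marked in all 3, beside 16 of the other 50 (32%), and 55.6% of all protein-coding genes. The receptors were chosen with earlier results of these data known, so this difference is a description without a test. AXL and EPHA2 ranked first and second of the family by the mean percentile. The highest 5 of the rest were EPHA5 at a mean percentile of 77.1, MST1R (the MET-related receptor for macrophage-stimulating protein) at 62.4, EPHB2 at 61.1, DDR1 (a collagen receptor like DDR2) at 59.7 and ERBB3 at 47.4. By list, EPHA5 stood at percentiles of 57.5, 86.1 and 87.8, so its place rested on the Hs578T lists. EGFR, next below these 5, went the other way, at 62.4, 45.8 and 29.5. DDR1 had fold enrichments of 10.4, 10.4 and 7.32 where DDR2 had no peak. The other TAM receptors, TYRO3 and MERTK, had weak peaks of 5.20, 2.82 and 3.01, and of 5.99, 4.65 and 4.07. At CSF1R and LMTK3 a peak was found in all 3 lists at another annotated start only.

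**Figure D4:**
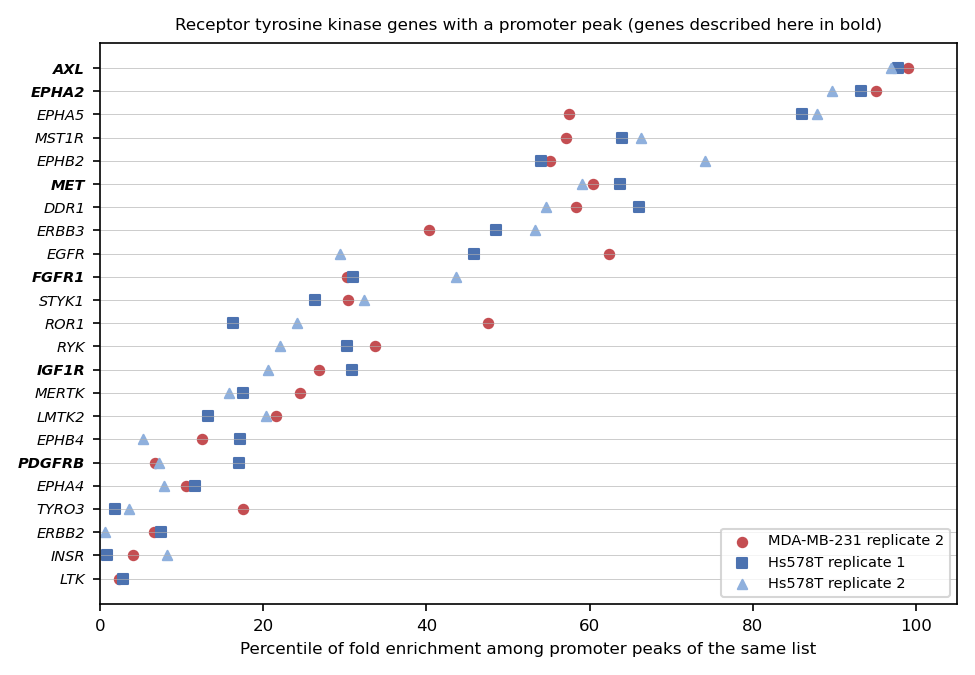
Receptor tyrosine kinase genes with a promoter peak, ordered by the mean percentile of the fold enrichment among promoter peaks of the same list (horizontal axis). Each point is 1 of the 3 large lists, and the genes described here are in bold. AXL and EPHA2 stand at the top, MET in the upper part, and PDGFRB near the bottom.

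Ligands of the families to which the 8 receptors belong, and intracellular signalling partners, were examined in the same way. Of 22 ligand genes, 9 (40.9%) had a promoter peak in all 3 large lists and 13 in none, beside 55.6% of all protein-coding genes in all 3. The marked ones were GAS6 and PROS1 (protein S) for the TAM receptors, PDGFA and PDGFC for the PDGF receptors, FGF5 and FGF18, the ephrins EFNA4 and EFNA5, and the collagen chain COL1A1. Those without were HGF, PDGFB, PDGFD, FGF1, FGF2, FGF7, EFNA1, EFNA2, EFNA3, COL1A2, COL3A1, IGF1 and IGF2. Neither ligand of IGF1R and not the ligand of MET was marked, while 1 of 3 collagen genes was. All 8 genes of adaptors and other signalling partners (GRB2, GAB1, FRS2, IRS1, IRS2, SHC1, CBL and PLCG1) had a promoter peak in all 3. SHC1, which links activated receptors to GRB2, was the strongest of them at 46.0, 38.8 and 34.3, and GRB2 the weakest at 6.40, 4.72 and 4.18 in MDA-MB-231 replicate 2, Hs578T replicate 1 and Hs578T replicate 2.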

How the data were processed

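H3K27ac was measured in 4 libraries, grouped and numbered by their titles. Per the study's methods, the authors trimmed reads with Trimmomatic, mapped them to hg38 with Bowtie2, called peaks per library with MACS2 after subtracting input, and removed blacklisted regions with bedtools. Versions and peak caller settings are not given in the sources used here. The deposited lists give a score, a fold enrichment (the ratio of signal to local background), and p and q as −log10, and the 9 columns are those of broad peaks. The largest q-value in a list was 0.0827 to 0.0994. Read numbers are not used here, so depth is unknown, and a weak region can pass in one library and miss in another. Since input was subtracted, peaks also depend on the input library.

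Peaks were intersected with GENCODE release 44 in Python 3.11.15 (pandas 2.3.3, pysam 0.24.0), after tests on simulated data, and bases covered more than once in a list were counted once. A peak overlapping 1 kb on either side of a canonical start was a promoter peak. Distances count from the canonical start, negative upstream. Regions are peaks of the 3 large lists merged where they overlap, with the highest fold enrichment per list. NF-κB stands for the 10-base consensus of its binding site. The genes and gene lists were chosen with earlier results of these data known. Beside the 10 genes, the text names the 5 other receptor kinases with the highest mean percentile and those called in only some large lists, all ligands and adaptors, and the strongest distal region per gene. EGFR, TYRO3, MERTK, SHC1, GRB2, the genes around the loci, the further regions, and the kinases marked at another start were named after their values were seen. The promoter sequence of FGFR1 is not reported here. Alternatives were stricter peak thresholds, other flanks and windows, all annotated starts, and leaving out each list.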

Additional observations from a re-analysis of the deposited data

How the results depend on the processing

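For Hs578T, the loci held 362150 ± 18899 bp in peaks and 122.5 ± 0.707 peaks (SD, n = 2). With the strongest 50% of each list by score they held 285810 bp and 63.5 peaks, with flanks of 10 kb 214177 bp and 64 peaks, and with only the peaks nearest to the start of one of the genes 198950 bp and 61.5 peaks, while flanks of 50 kb gave 283206 bp. All these alternatives keep fewer peaks or bases by construction. For MDA-MB-231 the mean of 57.5 peaks became 30.5, 29 and 28 under the strongest 50%, flanks of 10 kb and nearest start. Receptor tyrosine kinase genes with a promoter peak fell to means of 12.5 (Hs578T) and 7.5 (MDA-MB-231) with the strongest 50%, from 22.5 and 11.5. The AP-1 share of distal peaks was 62.0% in Hs578T with the strongest 50% and 58.0% with a −log10 q of at least 2, instead of 51.6%, and 22.3% and 26.97% (MDA-MB-231) in the central 500 bp of each peak, a shorter sequence. The shares over all distal peaks under these settings were not computed, so these values cannot show an excess at the loci. The Jaccard index of the Hs578T pair, 0.808, was 0.814 with the strongest 50%, 0.806 with a −log10 q of at least 2, 0.804 and 0.800 with flanks of 50 and 10 kb, 0.806 with nearest start and 0.758 in distal peaks. A promoter window of 500 bp lost the FGFR1 peak in Hs578T replicate 2, leaving 6 genes, and with the strongest 50% of each list 6, 6 and 5 of the 7 genes kept a promoter peak in the 3 large lists, PDGFRB losing its peak in all 3 and IGF1R in Hs578T replicate 2.

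Values for MDA-MB-231 rested on which of its replicates was kept, and since their spread is that between a nearly empty and a full list, it says nothing of stability. Its genes with a promoter peak ranged from 0 to 7, its covered bases from 0 to 336865 bp, its peaks from 0 to 115 and its receptor tyrosine kinase genes from 0 to 23. The difference between lines (Hs578T minus MDA-MB-231) of 3.5 genes ranged from 0 to 7, that of 193717 bp from 25284.5 to 362150, that of 65 peaks from 7.5 to 122.5, and that of 11 receptor tyrosine kinase genes from −0.5, without MDA-MB-231 replicate 1, to 22.5. With the replicate number as a block, the mean differences over same-numbered pairs were 3.5 genes, 193717 bp, 65 peaks and 11 receptor tyrosine kinase genes, which with complete pairs equal the differences of the means by arithmetic. The pairs themselves were 7 and 0 genes, 375513 and 11921 bp, 123 and 7 peaks, and 23 and −1 kinase genes, and with 2 pairs whether the numbers pair the libraries could not be tested. Peak lists without read depth limit all of this: a region missing from a list was not called there, which does not show that acetylation was absent.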
